A study of Mus musculus with 10 samples.

Results

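The genes described here encode the proteins of the cytosolic ribosome in mouse medial habenula, together with Rpl10a, the ribosomal protein that carries the EGFP tag in the mouse line used. Members were chosen by symbol alone: names beginning with Rpl or Rps and a number, Rpsa, and Rplp0 to Rplp2, without the Rps6k kinases and without pseudogene symbols. Of 32531 gene rows, 87 matched, and 84 passed the filter of at least 10 reads in 4 or more libraries. Of these 84 genes, 77 encode core ribosomal proteins, 46 of the large and 31 of the small subunit, and 7 are paralogues, retrocopies or symbol matches. The lowest member was Rpl26, with 10 to 51 reads per library, and the highest row left out was Rpl3l, with 0 to 9.

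The study sequenced RNA bound to tagged ribosomes (translating ribosome affinity purification, TRAP) from the left and the right medial habenula, which were dissected and homogenised separately. All mice were adult animals of the BAC transgenic line DW167, Chat-EGFP/Rpl10a, in which regulatory sequence of the choline acetyltransferase gene Chat drives EGFP fused to Rpl10a. Both groups carried the same transgene, and all 10 libraries (5 left, 5 right) were immunopurified with antibodies to EGFP. An unpurified input and an untagged control were not analysed here. Nothing in the labels ties each library to its own animal, so errors and p-values cover the spread between these libraries, which may be technical in part.

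A ribosome joins a small subunit, which reads the messenger RNA, to a large subunit, which forms the peptide bonds. Most cells make the core proteins of both subunits in near-equal numbers, and most of their mRNAs begin with an unbroken run of pyrimidines, the 5′ terminal oligopyrimidine (TOP) motif, through which growth signalling by mTOR and Larp1 sets how strongly they are translated. Rpl10a forms the flexible L1 stalk, where spent tRNA leaves the ribosome, and it lies at the surface of the ribosome, which lets a tag on it be reached by antibodies.

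Gene reads summed to between 42488448 and 67942836 per library, and the ribosomal protein genes received 90116 to 275085 of them. Replicates 1 and 5 of both sides stood apart from the other 6 libraries. Markers of other cell types were at their lowest there: the 12 oligodendrocyte markers summed to 106 to 120 CPM (counts scaled to 1000000 gene reads per library) in these 4 libraries against 428 to 1761 in the others, and the 15 astrocyte markers to 566 to 610 against 909 to 2304. The 12 medial habenula markers summed to 9160 to 9675 CPM against 4934 to 8383, and the 4 cholinergic markers to 953 to 1073 against 470 to 846. The labelled tissue and cell type thus had their markers in every library, and no listed marker of any of these classes was at 0. Left replicates 1 and 5 were also unusually alike, with a chi-square of 2.16 per gene, and right replicates 1 and 5 with 1.32, against 6.72 to 57.1 for every other pair within a side. Since this split was seen in the data and is not given by the labels, values for the 4 libraries are given as ranges with no test. In bulk pull-downs, fewer cells of a type and less RNA per cell cannot be told apart.

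The region around the start of the transcript is the sequence the members are best known for, and it is shown first. Of the 84 genes, 63 matched a RefSeq promoter entry in GRCm38.p6, and 52 of these (82.5%) had a run of at least 8 pyrimidines reaching within 50 bases of an annotated start. Among all 27025 genes with an entry the share was 41.4%. This window was widened after the run of Rpl10a had been seen outside a narrower one; within 10 bases of the start, 29 of 63 members (46.0%) and 15.8% of all genes had such a run. The windows below are 30 bases placed around the longest pyrimidine run, not around the start. They are written 5′ to 3′ on the strand of the gene, with the run in capitals. They show Rpl10a itself, the 2 most abundant members per length (Rpl4 and Rps15), a stalk protein that followed the common pattern across libraries (Rplp2), and 2 of the 5 members that followed it least (Rpl27a and Rpl31).

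Rpl10a, chr17:28328572-28328601, plus strand: aagcgctctgCCTTCTTTCCggtttccgcg

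Rpl4, chr9:64173405-64173434, plus strand: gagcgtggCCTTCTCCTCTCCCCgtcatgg

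Rps15, chr10:80292446-80292475, plus strand: gcagcccgtaCTTCCTTTTCCgagtaaccg

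Rplp2, chr7:141447636-141447665, plus strand: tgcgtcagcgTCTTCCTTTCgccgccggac

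Rpl27a, chr7:109519186-109519215, plus strand: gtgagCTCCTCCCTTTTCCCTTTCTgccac

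Rpl31, chr1:39367824-39367853, plus strand: ctcgccacaCCTCTTCCTCCTCgcctcccc

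The capitals in these windows span 10 bases in Rpl10a and Rplp2, 11 in Rps15, 13 in Rpl31, 15 in Rpl4 and 20 in Rpl27a. Counted from the annotated start, the run began at 17 in Rpl10a, 26 in Rpl4 and 25 in Rps15. It began at -5 in Rplp2, -4 in Rpl27a and -18 in Rpl31. Another annotated start of Rpl10a had a longest run of only 7 bases, beginning at -9. The capitals are therefore not shown to be TOP motifs. Among these windows, the runs of Rpl27a and Rpl31 were longer than those of Rpl10a, Rplp2 and Rps15, and that of Rpl4 was longer than that of Rpl31. Run length was not compared over the members with how closely they followed the common pattern. For each gene, the 300-base promoter entry with the longest pyrimidine run near a start was searched on both strands. In these entries the word CCGGAAG was present in 24 of 63 members (38.1%) and in 9.08% of all genes. AAGATGGC was present in 5 members (7.94%) and in 2.87% of all genes. Further entries of a gene were not counted, which leaves out a CCGGAAG in another entry of Rpl19 and an AAGATGGC in another of Rpl22. These matches are descriptions of letters, and no binding was measured.

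Levels differed widely between members. Mean CPM ran from 0.474 for Rpl26 to 420 for Rpl4, an 887-fold range with a median of 17.1. Per kb of 1 chosen transcript, which allows genes to be compared, the range was 0.271 CPM per kb for Rpl5 to 273 for Rpl4, or 1010-fold. A spread of this size was found among proteins that the ribosome holds in near-equal numbers.

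In the large subunit, Rpl4, which lines the exit tunnel of the nascent peptide, led with 491, 430, 370, 371 and 471 CPM in left replicates 1 to 5. It had 474, 451, 364, 326 and 454 CPM in right replicates 1 to 5. The sides overlapped, with right replicate 4 below all left libraries and left replicate 1 above all right ones. This single gene took 11.2% of all member reads in right replicate 5 and 22.4% in left replicate 4. Per kb it was followed in its subunit by Rpl8, which lies next to the peptidyl transferase centre, at 196 CPM per kb, and by Rpl32 at 189. At the low end stood Rpl5, which carries the 5S rRNA into the large subunit, at 0.271 CPM per kb, then Rpl28 at 0.791, Rpl24 at 0.870, Rpl26, which sits at the exit of the tunnel, at 0.90, and Rpl9 at 1.14. All 5 of these low genes belong to the large subunit. Exons of Rpl24 overlap those of another gene over 71.5% of their length, those of Rpl5 over 46.6% and those of Rpl28 over 16.5%, so the counts of these genes are uncertain to that extent.

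In the small subunit, Rps15, which reaches towards the decoding site, led with 243 CPM per kb. Rps3, which forms part of the channel where the mRNA enters, had 97.2 CPM per kb. Its CPM values were 235, 179, 133, 125 and 240 for left replicates 1 to 5, and 242, 183, 131, 152 and 235 for the right ones, with replicates 1 and 5 highest on each side. The P-stalk, which recruits the translation factors, was measured through Rplp0 at 18.2, Rplp1 at 95 and Rplp2 at 63.4 CPM per kb. Summed over the core proteins, the large subunit had 1.30 (right replicate 4) to 1.58 (left replicate 4) times the CPM of the small subunit.

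Many of these genes have processed pseudogenes, retrocopied elsewhere in the genome, and a read that aligns equally well to such a copy is lost to a counter that takes unique alignments. To measure how much sequence a member shares, the chosen transcript was cut into all its 50-base words, and each was looked up in the transcripts of every other GENCODE M21 gene on both strands. Of 84 members, 82 shared at least 1 word with a pseudogene, with a median of 8 and up to 120 pseudogenes per member. Unique words made up 1.35% of the Rps27 transcript, 6.68% of Rpl9 and 7.87% of Rpl10, but 97.0% of Rps3. The median was 54.3%. In 29 of the 82 members with an annotated coding sequence, no coding word of 50 bases was unique, and in 24 no word of 100 bases was.

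The level per kb moved with this share. Median CPM per kb was 5.0 in the 18 members with under 25% unique words, 20.6 in the 19 members with 25% to 50%, 29.4 in the 33 members with 50% to 75%, and 46.7 in the 14 members with at least 75%. Over 84 genes Spearman's rho was 0.476 with words of 50 bases and 0.592 with words of 100 bases, as a description across genes that share libraries. Some members had mostly unique words over the chosen transcript and a low level per kb. Rps20 had 92.4% unique words and 4.6 CPM per kb, and Rpl28 had 65.5% and 0.791. Only 15.1% of the coding words of Rps20 were unique, however, and none of those of Rpl28. Of the 3706 bases of the chosen Rps20 transcript, 3167 were 3′ untranslated, and its mean of 17.1 CPM was close to the member median. Alignments that were not unique were tallied in a row of their own, at 0.315 to 0.931 per gene read. Neither the read length nor whether any of them were also counted to genes was stated. The part that lost alignments have in the order of levels was not tested.

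**Figure D1:**
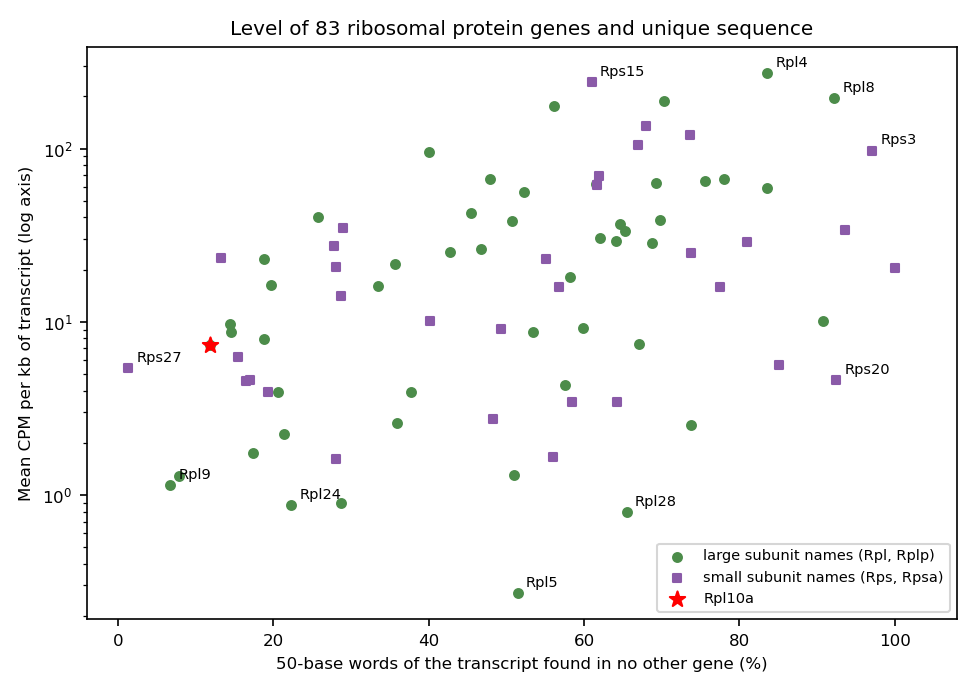
Mean CPM per kb (log axis) against the percentage of 50-base transcript words found in no other gene, 1 point per gene for 83 ribosomal protein genes. Rpl10a (star) lies at 11.9% unique words and 7.33 CPM per kb, on the side where levels are lower, while Rpl4, Rpl8 and Rps3 combine mostly unique sequence with high levels.

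Rpl10a lies on the plus strand at chr17:28328471-28331033 (GRCm38, GENCODE M21), and its chosen transcript has 6 exons and 729 bases, 651 of them coding. Its counts were 142 to 490 reads per library. In left replicates 1 to 5 it had 5.93, 6.24, 4.26, 2.16 and 7.52 CPM. In right replicates 1 to 5 it had 7.12, 4.59, 3.67, 4.71 and 7.21 CPM. Left replicate 4 was the lowest and left replicate 5 the highest of all, so the right side lay within the range of the left. The left averaged 5.22 ± 2.07 CPM (SD, n = 5), and the right 5.46 ± 1.61 (SD, n = 5). The tagged gene was thus not among the abundant members: by mean CPM 28 members were lower, and its level per kb was 7.33 CPM against a median of 19.3 over the members.

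Only 3 of its 602 coding words of 50 bases were unique, and a further 78 unique words reached into its untranslated ends. Together these were 11.9% of its words, and 5 pseudogenes shared words with it. No row of the table was named for EGFP. Reads from the transgene cannot be told apart from reads of the endogenous gene where their sequences are the same, so the table gives no separate value for the tagged transcript.

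As a share of all member reads, Rpl10a made up 0.158%, 0.217%, 0.213%, 0.131% and 0.186% in left replicates 1 to 5. On the right the shares were 0.178%, 0.167%, 0.194%, 0.222% and 0.178%. The lowest share, in left replicate 4, had an exact binomial 95% interval of 0.110% to 0.154%, which lay apart from that of the highest, in right replicate 4, of 0.192% to 0.255%. These intervals cover counting error only. Left shares averaged 0.181% ± 0.0368 (SD, n = 5) and right shares 0.188% ± 0.0213 (SD, n = 5), a difference of -0.00693 percentage points, and the left was higher in 3 of 5 pairs of the same replicate number. An exact two-sided permutation test over 252 assignments gave p = 0.714, where 0.00794 is the smallest p possible. A difference in the share between sides was therefore not shown. The summed CPM of all members was 2.44-fold higher in its highest than its lowest library, while the share of Rpl10a differed 1.70-fold. The median of this range of the share over the members was 1.72-fold.

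**Figure D2:**
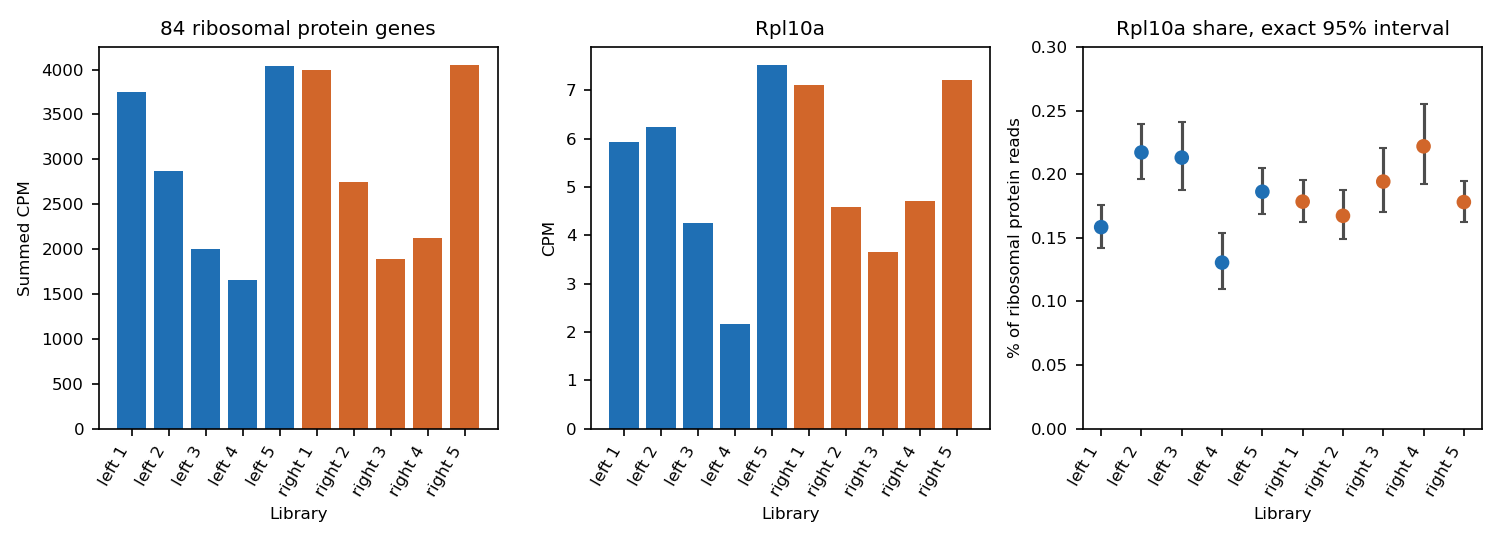
Summed CPM of the 84 ribosomal protein genes (bars, left panel), CPM of Rpl10a (bars, middle) and Rpl10a as a percentage of their reads (points with exact binomial 95% intervals, right) in each library, with left libraries in blue and right libraries in orange. Summed levels reach 3746 to 4049 CPM in replicates 1 and 5 of both sides and 1657 to 2875 in the others, while the share of Rpl10a stays between 0.131% and 0.222%.

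Across the 10 libraries Rpl10a varied with the rest of the ribosome. Its Pearson correlation with the median log2 CPM of the other 83 members was 0.934. The median of this value over the 84 members was 0.964, and Rpl10a ranked 54 among them, so most members followed the others more closely. The median correlation of Rpl10a with single members was 0.897, from 0.408 to 0.974, against -0.0258 over 16249 other tested genes. The 5 genes most like it were Erp29, a chaperone of the endoplasmic reticulum, at r = 0.985, the histone gene Hist1h4d at 0.982, the phosphatase gene Ppp5c at 0.979, Aspscr1 at 0.976 and Rps15 at 0.974. These values describe 10 libraries that also share their differences in marker content and carry no test. Rps15 was the only member among the 5.

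Between left and right, no ribosomal protein gene was called. The edgeR quasi-likelihood test called 0 of 84 members, and 0 of 16250 genes overall (0%), at an adjusted p under 0.05. No member had an unadjusted p under 0.05, against 90 of all genes (0.554%), and DESeq2 also called 0, with 141 genes at an unadjusted p under 0.05. Rpl10a had a log2 fold change, left minus right, of -0.08 (SE 0.33), with a 95% interval from -0.81 to 0.65.

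Summed CPM was 3746, 2875, 1999, 1657 and 4040 in left replicates 1 to 5 and 3990, 2742, 1887, 2121 and 4049 in right replicates 1 to 5. The means were 2863 ± 1045 (SD, n = 5) and 2958 ± 1018 (SD, n = 5), and the sides overlapped over nearly their whole range. The largest differences between sides by size were those of Rpl37rt, annotated as a transcribed processed pseudogene, at -0.39 (SE 0.31), Rpl36 at -0.38 (SE 0.49), Rpl19, which forms a bridge between the subunits, at -0.37 (SE 0.34), Rpl27 at -0.32 (SE 0.42) and Rpl24 at -0.29 (SE 0.44). None passed the test, and the 95% interval of all 84 members held 0. In 48 members that interval lay within -1 to 1, and in the other 36 it did not exclude a 2-fold difference. With the replicate number as a block, the intervals were narrower: 81 lay within -1 to 1, all 84 held 0, and no member had an unadjusted p under 0.05 in edgeR.

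The signs leaned one way. In 73 of 84 members the log2 fold change was below 0, that is, lower on the left, against 53.7% of all tested genes, and the median was -0.10 against -0.01. The members move together from library to library, so these signs are not independent, and their count changed when single libraries were left out. Without right replicate 5 only 20 members were below 0, without left replicate 4 only 22, without right replicate 1 only 28 and without left replicate 3 only 35, while without left replicate 5 there were 83. The median ran from -0.30 to 0.05 over these fits, and the value of Rpl10a from -0.26 to 0.12. Each of these fits left the replicate numbers unequal between the sides. In fits with both sides of each number, 73 members were below 0 with the replicate block and 71 with replicates 1 and 5 summed. With replicates 2 to 4 alone 62 were, and with replicates 1 and 5 alone 68 were, each against 50.7% of all tested genes.

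**Figure D3:**
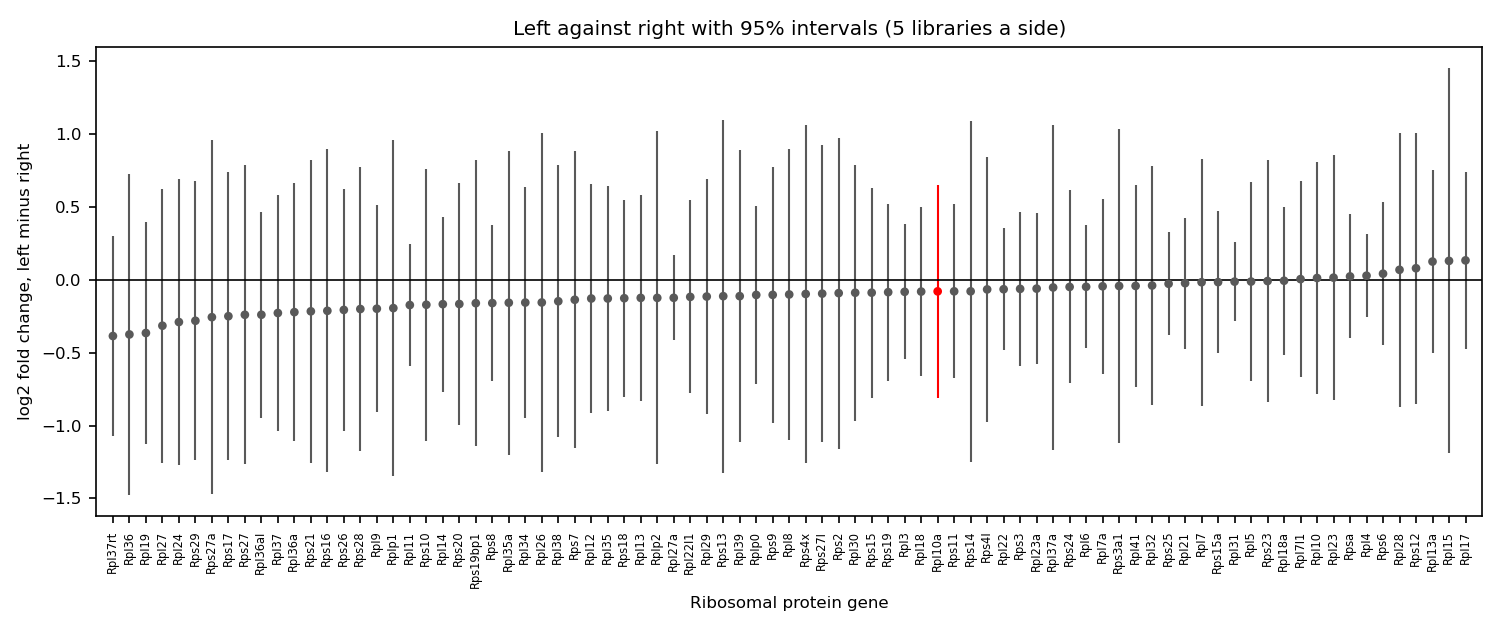
Log2 fold change, left minus right, of 83 ribosomal protein genes (points) with its 95% interval (lines) from the edgeR fit over all genes, with Rpl10a in red. Points lie between -0.39 and 0.13, and every interval crosses 0.

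The members differed far more between libraries than between sides, and most of them in the same order. Of 84 members, 61 had their 4 highest values in replicates 1 and 5 of the 2 sides, against 22.9% of all tested genes, and 81 had their highest value in one of these libraries. The lowest value fell in left replicate 4 in 65 members and in right replicate 3 in 10. For the single highest or lowest library, the matching shares of all tested genes were not counted. These counts are therefore not shown to be particular to the members. The ratio of highest to lowest library had a median of 3.24 over the members, against 2.03 over the 15745 tested genes with reads in every library. Correlation with the median of the other members was at least 0.9 in 66. Rpl10a was among the 23 members without that order, since its 6.24 CPM in left replicate 2 exceeded its 5.93 in left replicate 1, and Rps15 was another, with 144 CPM in left replicate 2 and 141 in left replicate 1.

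Among the closest followers were Rpl8, with r = 0.995, Rpl37a, Rps28 and the stalk protein Rplp2. Rplp2 had 85.6, 57.6, 32.6, 18.5 and 99 CPM in the left libraries, and 102, 48.9, 29.4, 32.1 and 105 CPM in the right ones. Replicates 1 and 5 stood above all others on each side, and the highest value was 5.65 times the lowest. Its partner Rplp1 had the widest range of all members, 7.10-fold, from 11.1 CPM in left replicate 4 to 79.1 in left replicate 5. In the small subunit the widest ranges were those of Rps14 at 7.08-fold, Rps13 at 6.41-fold, Rps16 at 6.33-fold and Rps27a, which is made as a fusion with ubiquitin, at 5.80-fold.

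Rpl15 had the largest gap between replicates 5 and 1, and was picked out after its values were seen. It reached 182 CPM in left replicate 5 and 156 in right replicate 5, but 97.1 and 80.9 in replicate 1 of the left and right, and 28.4 to 50.9 in the other 6 libraries. The lower replicate 5 was 1.60 times the higher replicate 1, and in the member with the next largest ratio, Rpl41, it was 1.13 times. In 11 members, Rpl15 and Rps16 among them, both replicate 5 libraries lay above both replicate 1 libraries, and these above the other 6. The share of all tested genes with this order was not counted, so the order is not shown to be particular to the members. In the labels, the left and right libraries of replicates 2, 3, 4 and 5 share a lane number and those of replicate 1 do not. The part that the lane has in these differences was not tested.

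A few members were nearly level. Rpl31, at the exit of the peptide tunnel, had 8.09, 7.19, 7.01, 8.13 and 8.79 CPM in the left libraries and 8.70, 7.20, 6.83, 7.81 and 8.43 CPM in the right ones, a 1.29-fold range, the narrowest of the members. Rpl23a, which docks the signal recognition particle at that exit, had the lowest correlation, r = 0.199, with values between 0.708 and 1.19 CPM. Rpl27a (r = 0.650), Rpsa (0.683) and Rps25 (0.722) came next, with ranges of 1.56-fold, 1.74-fold and 1.71-fold, and the range of Rpl4 was 1.51-fold. The exons of Rpl23a, Rps25 and Rpl31 overlap another gene over 55.4%, 52.2% and 40.0% of their length, so reads of the overlapping gene cannot be told apart from theirs if the counting ignored strand; its strand setting was not stated.

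**Figure D4:**
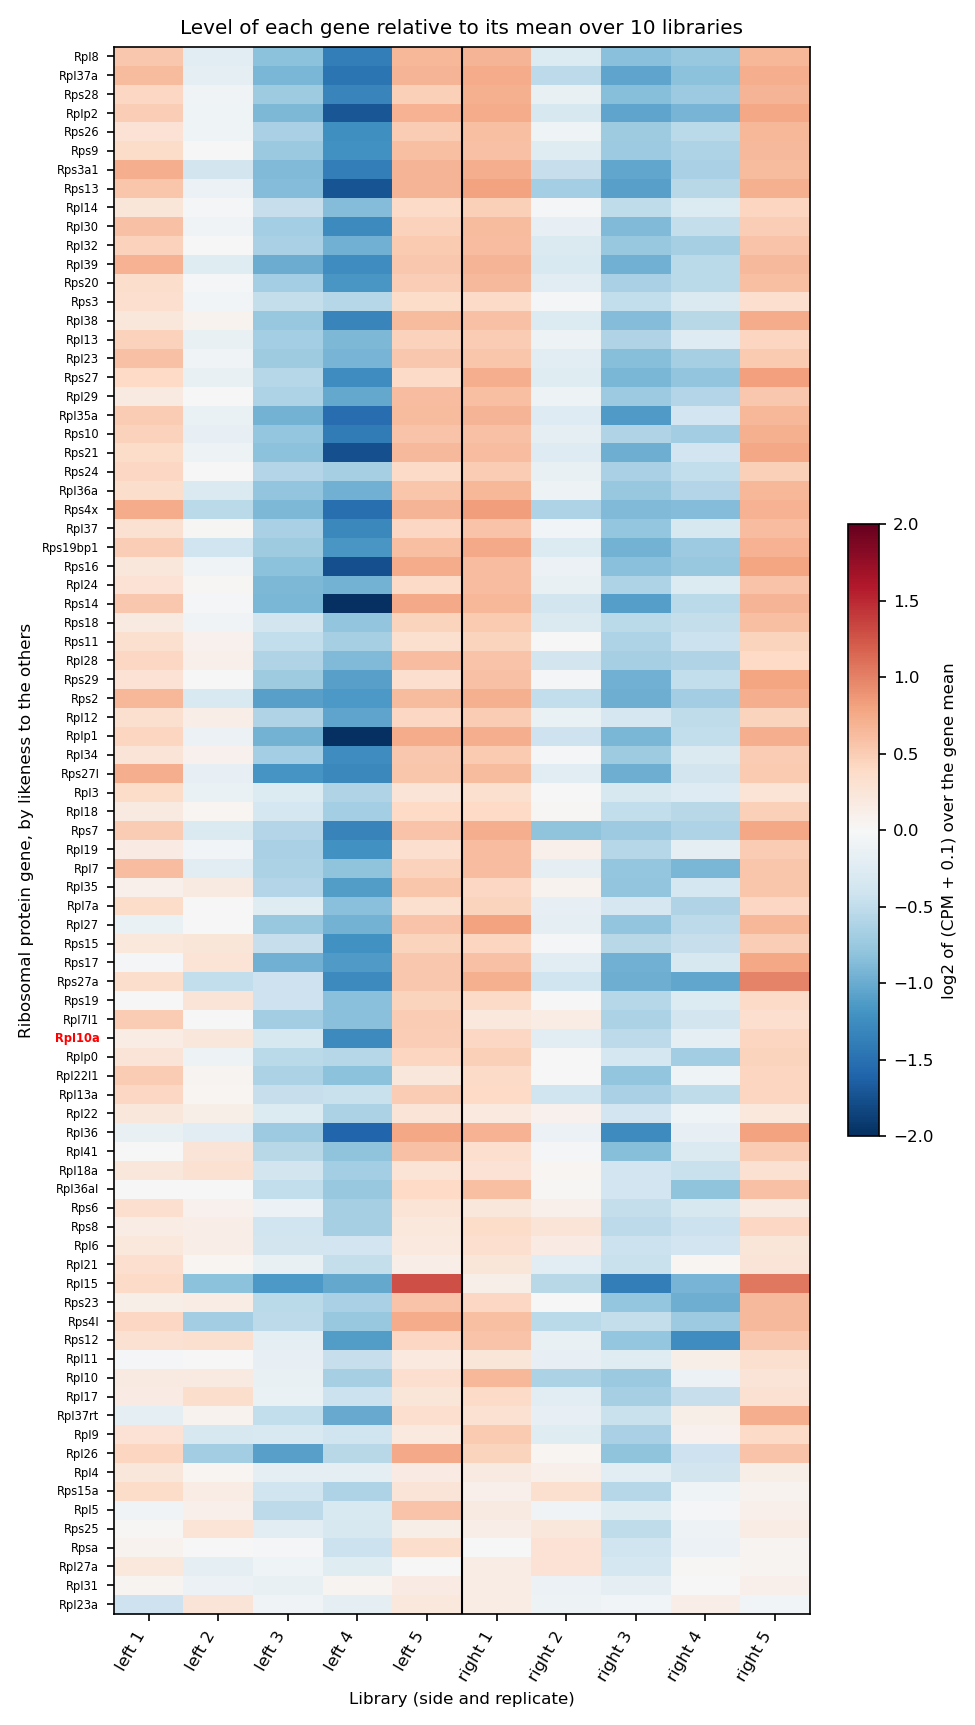
Level of 83 ribosomal protein genes in each library as log2 of (CPM + 0.1) over the mean of the gene, ordered from the highest correlation with the other members (top) to the lowest (bottom), with Rpl10a in red. Replicates 1 and 5 are above the mean in most rows on both sides, left replicate 4 is the lowest library in most rows, and the bottom rows down to Rpl23a are nearly level.

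Other parts of the translation machinery did not all share this order. Of 76 tested genes for mitochondrial ribosomal proteins, which are made in the cytosol and imported, 64 had replicates 1 and 5 above all other libraries, with summed levels of 3361 to 3434 CPM there and 1744 to 2495 elsewhere. Outside the symbol rule, Fau (S30 fused to a ubiquitin-like protein) had 7.12 to 11.9 CPM in replicates 1 and 5 and 1.61 to 5.18 in the others. Gnb2l1 (Rack1, on the small subunit) had 135 to 144 CPM against 57.2 to 80.9, so neither gene's ranges overlapped. By contrast, elongation factors did so in 4 of 12 tested genes, and their sum differed only 1.11-fold between libraries, from 1629 to 1800 CPM. Eef2, which moves the ribosome along the mRNA and whose own transcript is a TOP mRNA, had 573 to 635 CPM in replicates 1 and 5 and 644 to 805 in the others, the opposite order. Eef1a1, which delivers the tRNAs, had 367 to 382 CPM against 303 to 388, and the ranges overlapped.

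Among 16 other tested TOP mRNAs, Eef2 among them, 9 had replicates 1 and 5 highest and 3 had them lowest. The sum of the 16 differed 1.10-fold, against 2.44-fold for the ribosomal protein genes. This sum joins genes of opposite order. Its 2 most abundant genes, Eef2 and Eif3a, both had the reverse order. Eif3a had 210 to 233 CPM in replicates 1 and 5 and 334 to 635 in the others. Initiation factors had replicates 1 and 5 highest in 20 of 37 tested genes and ribosome biogenesis genes in 20 of 44. Genes of the growth signalling that acts on TOP mRNAs had them highest in 4 of 16, near the 22.9% of all tested genes. The reverse order, with replicates 1 and 5 below all others, was found in 4 initiation factors, 8 biogenesis genes and 7 growth signalling genes, against 24.3% of all tested genes. Larp1, which binds the TOP motif, had 193 to 202 CPM in replicates 1 and 5 and 219 to 291 in the others. None of these lists held a gene called between the sides by edgeR.

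Transcript length moved with the same order. For tested genes that are not members, length was taken over the joined exons of all protein coding isoforms. For members it was that of the chosen transcript, so the length classes of members and other genes rest on unlike measures. The 435 other genes under 1 kb summed to 20764 to 22006 CPM in replicates 1 and 5 and to 8346 to 15191 in the others. Of these genes, 56.6% had replicates 1 and 5 highest. The share was 46.1% from 1 to 2 kb, 25.2% from 2 to 4 kb and 12.6% at 4 kb or more. Most members are short: 59 of 84 have a chosen transcript under 1 kb, and 43 of these 59 (72.9%) had replicates 1 and 5 highest. Of the 25 longer members 18 (72.0%) did, against 23.2% of 13173 other genes of at least 1 kb. The sum of these members differed 1.80-fold between libraries, against 1.13-fold for those other genes. Of the longer members, however, only Rps15a, Rps20, Rpl7l1 and Rpl5 exceed 2 kb. Other genes of 1 to 2 kb had a share of 46.1%, and their sum differed 1.58-fold. For the short members the sum differed 3.43-fold, against 2.64-fold for other short genes. Over the members, the ratio of highest to lowest library had a Spearman's rho of -0.450 with transcript length.

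Marker genes and alignment counts moved with it too. All 12 oligodendrocyte, 14 of 15 astrocyte, all 6 oligodendrocyte precursor, 7 of 10 microglial, 8 of 10 endothelial and 8 of 9 thalamic marker genes tested had replicates 1 and 5 below all other libraries, against 24.3% of all tested genes. Thalamic markers summed to 673 to 736 CPM there and to 1203 to 2518 elsewhere. Of choroid plexus and ependyma markers, 3 of 6 tested had replicates 1 and 5 lowest, as had 3 of 3 blood markers. Of the markers of the labelled tissue and cell type, 9 of 12 habenular and 2 of 4 cholinergic genes had replicates 1 and 5 highest. That compares with 22.9% of all tested genes. Alignments that were not unique numbered 0.841 to 0.931 per gene read in replicates 1 and 5 and 0.315 to 0.765 in the others, lowest in left replicate 4, which also had the lowest level in 65 members. The part that other cell types, transcript length and lost alignments each have in the order of the ribosomal protein genes was not tested.

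**Figure D5:**
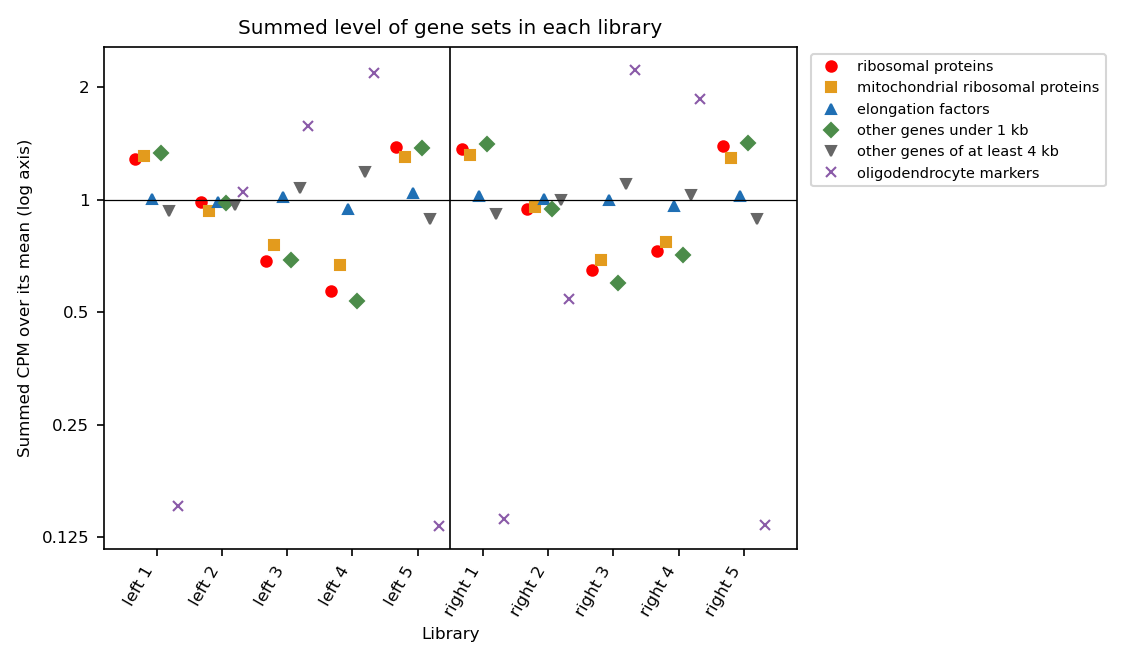
Summed CPM of gene sets in each library, divided by the mean over the 10 libraries (log axis), with points of a library spread sideways for visibility and a line between left and right. Ribosomal proteins, mitochondrial ribosomal proteins and other genes under 1 kb lie above 1 in replicates 1 and 5 of both sides, elongation factors stay near 1 in every library, and oligodendrocyte markers are lowest in replicates 1 and 5.

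Paralogues and retrocopies were measured beside their core relatives. Rpl3l, the striated muscle form of Rpl3, had a mean of 0.0567 CPM against 13.2 for Rpl3, Rpl39l had 1 read in 1 library against 36.3 CPM for Rpl39, and Rpl10l, a testis form of Rpl10, had 0 reads in all 10 libraries. With 0 reads, 3 reads in the shallowest library, or 0.0706 CPM, is the level that could have been missed. Rpl10 itself had only 1.03 CPM, with 7.87% unique words.

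Other relatives were well measured. Rpl22l1 had 25.4 CPM per kb against 64.7 for Rpl22, and Rpl7l1 10.1 against 26.2 for Rpl7. Rpl36al had 8.69 against 8.71 for Rpl36a, and Rps27l 15.8 against 5.41 for Rps27. In the pair of Rps27 the relative thus stood above the core gene per kb, where Rps27 has 1.35% unique words and Rps27l 77.6%. Rps4l, annotated as a transcribed processed pseudogene, had 5.59 CPM per kb against 27.4 for Rps4x. Rps19bp1, which binds Rps19 and is no ribosomal protein, had 20.4 against 15.8 for Rps19. All 6 of these relatives had correlations between 0.881 and 0.978 with the median of the other members. Exons of Rpl36al overlap another gene over 63.1% of their length, which leaves its counts uncertain.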

How the data were processed

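RNA from 10 pull-downs was analysed. The authors deposited raw counts of reads per gene, 1 table per library; STAR 2.0.0e, HTSeq and the build mm10 are named per the submitters' processing notes, and annotation and strand setting are not stated there. Of 32537 rows per table, 6 that name no gene were left out; 13.6% to 18.9% of uniquely aligned reads lay outside genes. CPM are counts scaled to 1000000 gene reads. Sides were compared with edgeR 4.0.16 (R 4.3.3; two-sided robust quasi-likelihood test on side alone, TMM factors, genes kept by filterByExpr at a count of 10, Benjamini-Hochberg adjusted p under 0.05 over all 16250 tested genes), with DESeq2 1.42.0 as an alternative. On simulated data for left minus right (16250 genes) the fit recovered 37% of 2-fold and 89% of 4-fold changes, with 5 false calls. The changed genes were drawn from those with a mean of at least 1 CPM, so members below that level are not covered. Simulated libraries were independent and did not carry the shared pattern of the real ones.

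Replicate numbers were taken as pairs. The deviations of same-numbered libraries from their side's mean correlated over 13273 genes, at 0.93, 0.19, 0.90, 0.80 and 0.94 for numbers 1 to 5. For replicates 2 and 4 the best match was not with the same number. Replicates 1 and 5 of both sides also share the split described above, so the pairing by number remains uncertain. In the labels, libraries of the same number share a lane number for replicates 2 to 5 and not for replicate 1; nothing else shared is named. For members, lengths and shared words come from 1 GENCODE M21 transcript per gene (protein coding, best support, lowest number), a rule chosen after a version over all isoforms had been seen. For the other genes, length is that of the joined exons of all protein coding isoforms. Start windows come from RefSeq, GRCm38.p6; windows on 1 chromosome, and a few genes, are not reported here and are left out of the figures, but stay in counts and medians.

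Members, gene lists and tests were chosen with earlier results of these data known. Genes named were Rpl10a, the 5 highest and 5 lowest members per kb, the 5 with the largest difference between sides, the 5 most and 5 least like the others, Rpl4, Rps3, the paralogues with their relatives, the 5 genes most like Rpl10a, and abundant genes of each list. Rpl15, Rplp0, Rplp1, Rps13, Rps14, Rps16, Rps20, Rps27a and Rps15a were added after their values were seen. Figures were drawn with matplotlib 3.10.9.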

Additional observations from a re-analysis of the deposited data

Results flagged for a closer look

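Of 74 groups of 5 values examined, 1 had a library far from the rest: Rpl39l was at 0.0180 CPM in left replicate 5 and at 0 in the other 4 left libraries. That value is 1 read. Chance alone sets apart about 1 in 20 such groups.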

How the results depend on the processing

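The comparison of sides called 0 genes and 0 members under each alternative run on 5 libraries a side, with replicates summed, with replicates 2 to 4 alone, and without each library. With replicates 1 and 5 alone, chosen after seeing the data, edgeR called 1992 of 15569 genes (12.8%), of which 1 was a member, Rps15a at a log2 fold change of 0.23, adjusted p = 0.0228. The libraries of that fit are nearly alike within a side, so its spread may be technical. With the replicate block, 73 members stayed below 0, the median was -0.14 and Rpl10a was at -0.13; the share of Rpl10a gave p = 0.812 in the exact sign-flip test over pairs, where 0.0625 is the smallest p possible. No call changed with the block. Leaving out 1 library at a time, members below 0 ranged from 20 to 83, the median from -0.30 to 0.05, Rpl10a from -0.26 to 0.12 (above 0 without left replicate 4, right replicate 1 or right replicate 5), and its share difference from -0.0159 to 0.00570 percentage points (above 0 without replicate 4 of either side). The cause was not tested. The range of summed CPM was 2.44-fold, 2.80-fold without Rpl4 and 1.74-fold over replicates 2 to 4 alone. Low members had 10 to 51 reads per library, which limits their precision.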
